A study of Mus musculus with 22 samples.

Results

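The 10 genes described here encode transcription factors that drive or modulate the building of cilia: Foxj1, the RFX factors Rfx1, Rfx2, Rfx3, Rfx4 and Rfx7, the E2F factors E2f4 and E2f5, and the E2F dimerization partners Tfdp1 and Tfdp2. They were chosen by gene symbol for this role, not by their values, and all 10 were found among the 17306 genes of the table, each in 1 row. Expression was measured by RNA sequencing of L4-L6 spinal cord from 22 wildtype male C57BL6J mice aged 12 to 14 weeks at collection. All mice carried the same joint pain model, induced by 1 mg of monoiodoacetate (MIA) in the knee, where this blocker of glycolysis kills cartilage cells. SAFit2 mice received 100 mg/kg of SAFit2, an inhibitor of the stress-regulated co-chaperone FKBP51, in a vesicular phospholipid gel (VPG) that releases it slowly, and Vehicle mice received the gel alone. Gel was injected on days -3 and 4 around MIA in the early groups (5 SAFit2 and 6 Vehicle mice) and on days 20 and 27 after MIA in the late groups (5 SAFit2 and 6 Vehicle mice), and tissue was collected on day 30. There was no group without MIA, so every comparison is between mice with joint pain. The treatment labels read SAFit2 for all treated mice, although 5 of them (Early SAFit2) carry SAFit1 in their titles, and a protocol label gives days 3 and 4 for the early injections. The labels also give Early and Late as batches, so that timing and batch cannot be told apart in any comparison across them.

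Cilia are microtubule-based projections that exist as a single immotile sensory primary cilium on most neurons and glia and as tufts of motile cilia on ependymal cells, which line the central canal of the spinal cord. Foxj1 switches on the genes of motile cilia, while RFX factors bind the X-box motif in promoters of genes used by both kinds of cilia. E2f4 and E2f5, each paired with a DP protein such as Tfdp1 or Tfdp2, repress cell cycle genes together with pocket proteins in resting cells, and in differentiating multiciliated cells they are recruited to switch on genes for the mass production of centrioles.

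Reads assigned to genes ranged from 11352989 to 24433349 per library. Markers of neurons, oligodendrocytes and astrocytes were high in every library, with mean levels between 7.82 and 9.89 log2 CPM (library-scaled read counts on the log2 scale), in keeping with the labelled tissue. Ependymal markers (Ccdc153, Tmem212, Dynlrb2, Rarres2, Meig1, Mlf1, Ak7 and Spag17) were low and uneven, with a mean level from -1.53 to -0.89 log2 CPM in Early SAFit2, -1.03 to 1.71 in Early Vehicle, -1.34 to 1.78 in Late SAFit2 and -0.80 to 1.87 in Late Vehicle mice. Markers of tissue around the cord were most uneven in Late SAFit2 mice, where the mean of Schwann cell markers ran from -1.79 to 7.43 log2 CPM (5.11 to 6.25 in Late Vehicle) and that of skeletal muscle markers from -1.52 to 4.85 (-1.68 to -0.17 in Late Vehicle). Library scaling factors averaged 0.875 ± 0.0625 (SD, n = 5) for Late SAFit2, against 0.994 ± 0.0489 (SD, n = 6) for Late Vehicle. As these are bulk samples, fewer cells of a type and less RNA per cell cannot be told apart.

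All 10 factors were detected in all 22 libraries and passed the filter for testing. Per kilobase of the longest transcript, mean levels over the 22 mice were highest for Tfdp1 (3.07 log2 CPM per kb), followed by Foxj1 (2.76), Rfx4 (2.70), E2f4 (2.56), E2f5 (2.48) and Tfdp2 (2.39), whose neighbours in this order lay closer than the SD over mice. Rfx7 followed at 1.95, and Rfx1 at 0.59 and Rfx3 at 0.29 were lower again and did not differ from each other beyond their SD. Rfx2 was the lowest at -1.12 log2 CPM per kb and rested on 6 to 67 reads per library, so that its values carried the largest counting error of the 10.

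**Figure D1:**
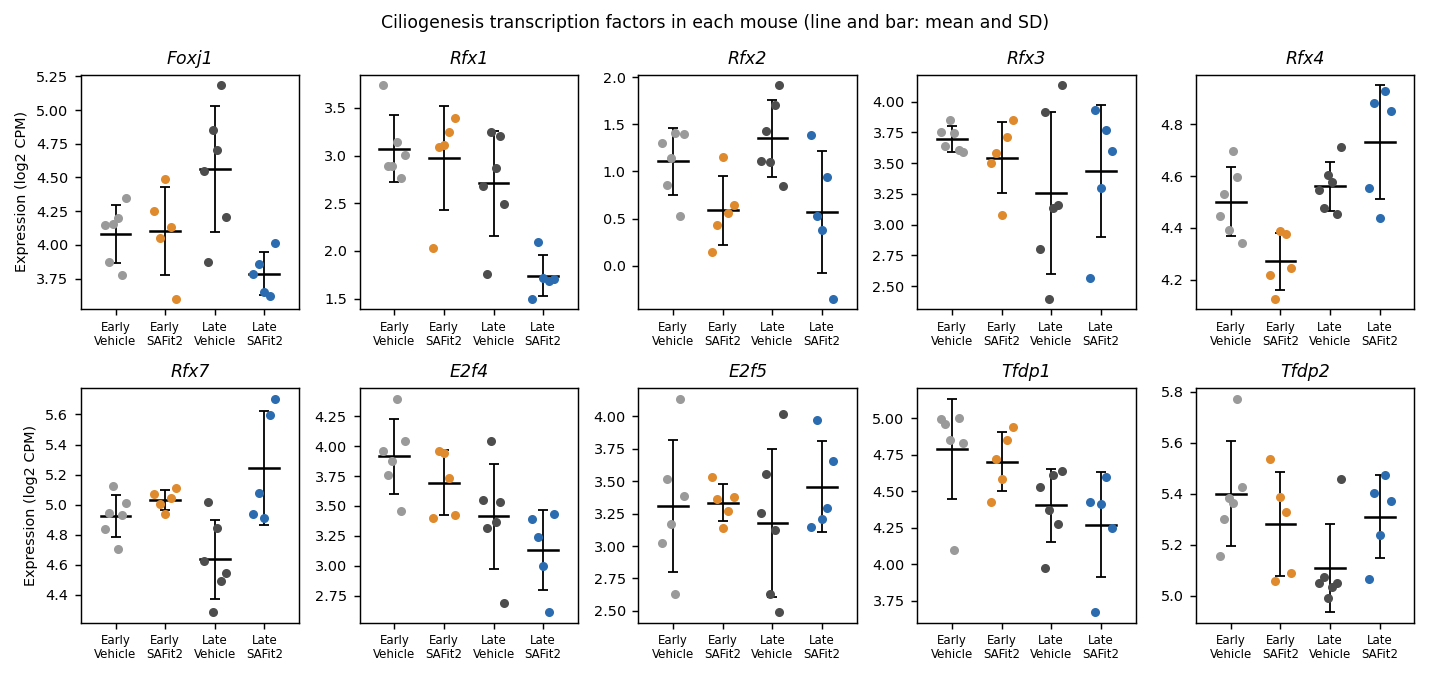
Expression (log2 CPM, vertical axes) of the 10 transcription factors in each of the 22 mice, with 1 point per mouse, a line at the group mean and a bar of 1 SD. Late SAFit2 points of Foxj1 (3.62 to 4.02) and Rfx1 (1.50 to 2.09) lie near or under the lowest Late Vehicle point, and those of Rfx7 (4.91 to 5.71) at the high end.

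The late comparison asked what SAFit2 did when it was given to mice with established joint pain. Of the 10 factors, Foxj1 and Rfx1 were lower with SAFit2 and Rfx7 was higher, while the other 7 did not pass the test. The test was limma with a variance trend over all 16765 genes, and a call required a difference of at least 1.2-fold with a p under 0.05 after Benjamini-Hochberg adjustment. The 3 calls among 10 members stood beside 12.1% of all genes called in this comparison (5.33% higher and 6.72% lower with SAFit2). At a nominal p under 0.05 there were 4 members, beside 34.5% of all genes. No member separated the groups without overlap, as 1.71% of all genes did. The median difference of the 10 members was 0.02 on the log2 scale, beside -0.05 for all genes tested. At that rate about 1 of any 10 genes is called, so the count of members is not in itself a result.

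Foxj1, the master regulator of motile ciliogenesis (chr11:116330704-116335399, minus strand, GRCm38), was present at 3.79, 3.86, 3.65, 3.62 and 4.02 log2 CPM in the 5 Late SAFit2 mice. In the 6 Late Vehicle mice the lowest value was 3.87, the median 4.63 and the highest 5.18. All 5 treated mice lay under the Vehicle mean and 4 of the 5 lay under every Vehicle mouse, so that the groups overlapped by the 1 Vehicle mouse at 3.87. The log2 fold change was -0.77 (SE 0.19, 95% interval -1.16 to -0.39, limma adjusted p 0.0324), a level of 0.584 times that of Vehicle, and the two-sided exact permutation p over 462 splits was 0.00866. The nearest gene upstream on the same strand, Rnf157, ends 953 bases before the start of Foxj1 and is expressed at a much higher level (7.70 to 8.33 log2 CPM in Late SAFit2 and 7.88 to 8.59 in Late Vehicle mice). Rnf157 was not called in this comparison (log2 fold change -0.33, SE 0.16, limma adjusted p 0.149), and its part in the reads assigned to Foxj1 was not tested.

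Rfx1, a broadly expressed RFX factor that binds X-box promoters (chr8:84066834-84096992, plus strand, GRCm38), was at 1.50, 2.09, 1.72, 1.68 and 1.70 log2 CPM in Late SAFit2 mice. In Late Vehicle mice it ranged from 1.76 over a median of 2.78 to 3.25. Again 4 of 5 treated mice lay under every Vehicle mouse, and the 28 to 59 reads behind each treated value make these the shallowest among the called members. The log2 fold change was -0.97 (SE 0.26, 95% interval -1.50 to -0.44, limma adjusted p 0.0331), a level of 0.510 times that of Vehicle, with an exact permutation p of 0.00866. An antisense RNA, C330011M18Rik, shares 42 exonic bases with the 6431 annotated for Rfx1, and was not called (log2 fold change -0.41, limma adjusted p 0.572).

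Rfx7, an RFX family member known mainly as a regulator of growth and metabolic genes (chr9:72532240-72622937, plus strand, GRCm38), moved the other way. It was at 4.93, 5.08, 4.91, 5.60 and 5.71 log2 CPM in Late SAFit2 mice, against a lowest value of 4.29, a median of 4.59 and a highest value of 5.02 in Late Vehicle mice. All 5 treated mice lay over the Vehicle mean and 3 of them over every Vehicle mouse. The log2 fold change was 0.61 (SE 0.14, 95% interval 0.31 to 0.91, limma adjusted p 0.0324), or 1.53-fold, with an exact permutation p of 0.0152. Antisense RNAs share 417 and 597 of the 15302 exonic bases annotated for Rfx7.

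The 250 bases before the RefSeq start sites of these called RFX genes are shown because RFX factors can bind RFX promoters, beside that of Rfx2, whose window holds the RFX word. The windows (GRCm38.p6) are chr8:84066586-84066835 on the plus strand for Rfx1, chr9:72531990-72532239 on the plus strand for Rfx7 and chr17:56831009-56831258 on the minus strand for Rfx2. Capitals mark the word GTTGCC, an RFX half-site and not a whole X-box, searched on both strands (GGCAAC on the other).
Rfx1: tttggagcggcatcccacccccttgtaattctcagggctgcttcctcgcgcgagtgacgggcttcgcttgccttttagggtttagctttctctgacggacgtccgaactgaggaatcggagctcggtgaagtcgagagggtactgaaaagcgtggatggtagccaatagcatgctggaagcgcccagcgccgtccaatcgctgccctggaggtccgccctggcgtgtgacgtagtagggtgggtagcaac
Rfx7: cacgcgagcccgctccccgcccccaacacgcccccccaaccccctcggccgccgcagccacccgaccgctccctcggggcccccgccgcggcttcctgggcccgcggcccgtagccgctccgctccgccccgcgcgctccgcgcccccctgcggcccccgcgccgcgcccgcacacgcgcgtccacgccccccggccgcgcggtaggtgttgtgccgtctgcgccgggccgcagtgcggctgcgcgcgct
Rfx2: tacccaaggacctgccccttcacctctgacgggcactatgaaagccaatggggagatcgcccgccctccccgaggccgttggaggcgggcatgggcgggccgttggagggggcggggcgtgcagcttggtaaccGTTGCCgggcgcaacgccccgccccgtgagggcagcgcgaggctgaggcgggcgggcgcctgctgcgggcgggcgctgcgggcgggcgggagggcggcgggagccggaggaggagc

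The word GTTGCC or its reverse was found in 12.51% of 32851 RefSeq windows of 300 bases (250 before and 50 after each start). Of the 7 members with a window (Rfx1, Rfx2, Rfx3, Rfx4, Rfx7, Tfdp1 and Tfdp2), it was in those of Rfx2, before the start, and of Rfx1 and Rfx3, just after the start and outside the bases printed for Rfx1. The E2F word TTCCCGC, searched on both strands, was in 4.6% of all windows and in none of these. Windows of the called members differed in base composition, at 60.3% G and C for Rfx1 and 84.7% for Rfx7, beside a median of 52.7% over all windows. A match is only a match of letters, and its absence says nothing about binding.

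Rfx2, which acts in multiciliated cells and in spermatids, was at 1.38, 0.53, 0.38, 0.94 and -0.35 log2 CPM in Late SAFit2 mice, and at 0.84, a median of 1.27 and 1.91 in Late Vehicle mice. Its log2 fold change of -0.77 (95% interval -1.39 to -0.15, limma adjusted p 0.0771) was as large as that of Foxj1 but missed the threshold. Treated mice 1 and 4 were within the Vehicle range while the other 3 treated mice lay under all Vehicle mice, and the exact permutation p was 0.0325. Without Late SAFit2 mouse 1 or without Late Vehicle mouse 6, Rfx2 would have passed as lower, the log2 fold change with each mouse left out in turn running from -0.98 to -0.54. The fits without these mice called 3537 and 4971 of 16765 genes.

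Neither Rfx3, needed for cilia on ependymal and other ciliated cells, nor Rfx4, expressed in neural progenitors and astrocytes, passed the late test. Rfx3 varied widely within the late groups, from 2.57 to 3.93 log2 CPM with SAFit2 and from 2.40 to 4.13 with Vehicle, and its log2 fold change of 0.18 had a 95% interval of -0.34 to 0.70. Rfx4 was far tighter, at 4.55, 4.88, 4.44, 4.93 and 4.85 log2 CPM in Late SAFit2 and 4.45 to 4.71 in Late Vehicle mice, with a log2 fold change of 0.17 (95% interval -0.06 to 0.40). Here 3 treated mice lay over every Vehicle mouse and 1 lay under every Vehicle mouse.

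Among the E2F factors and their partners none passed the late test. E2f4, the main repressive E2F of resting cells, had a mean of 3.13 ± 0.34 log2 CPM (SD, n = 5) with SAFit2 and 3.42 ± 0.44 (SD, n = 6) in Late Vehicle mice (log2 fold change -0.28, 95% interval -0.71 to 0.14). E2f5, its close relative, averaged 3.46 ± 0.35 and 3.18 ± 0.57 (log2 fold change 0.28, 95% interval -0.24 to 0.79). Tfdp1, the common DP partner, averaged 4.27 ± 0.36 and 4.40 ± 0.25 (log2 fold change -0.13, 95% interval -0.49 to 0.22), and Tfdp2, the alternative partner, 5.31 ± 0.16 and 5.11 ± 0.17 (0.20, 95% interval -0.05 to 0.45). For E2f4, E2f5 and Tfdp1 the SD over mice in each group was larger than the difference or close to it.

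The members called lower late were richer in G and C than the member called higher. Foxj1 (61.4% G and C in the longest transcript) and Rfx1 (60.8%), the richest of the 10, were lower, and Rfx7 (43.9%) was higher, while Rfx3, the poorest at 40.2%, was not called. These values stood beside medians of 57.7% for all genes called lower, 41.6% for all called higher and 49.7% for all genes with a value. Libraries differed in the same respect: per 10 percentage points of GC, levels changed by -0.48 to -0.05 on the log2 scale in Late SAFit2 libraries and by -0.32 to 0.49 in Late Vehicle libraries, relative to the mean of all libraries. Late Vehicle mouse 2, which had the lowest Foxj1 (3.87) and Rfx1 (1.76) and the highest Rfx7 (5.02) of its group, had a slope of -0.16. Late Vehicle mouse 6 had the most negative slope of the group (-0.32) with Foxj1 at 4.21, Rfx1 at 2.49 and Rfx7 at 4.54, the last of these under the group mean, and the slopes of Late Vehicle mice 1, 3, 4 and 5 lay between 0.26 and 0.49. After each library's trend on GC content and transcript length was taken away, the log2 fold change was -0.21 for Foxj1 (limma adjusted p 0.522), -0.41 for Rfx1 (0.341) and 0.36 for Rfx7 (0.178), and 0 of the 10 members and 0 of 16213 genes were called by limma, with 1 member (Rfx7) and 2526 genes at a nominal p under 0.05. If part of a true treatment effect ran along GC content, it is lost in this correction too.

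**Figure D2:**
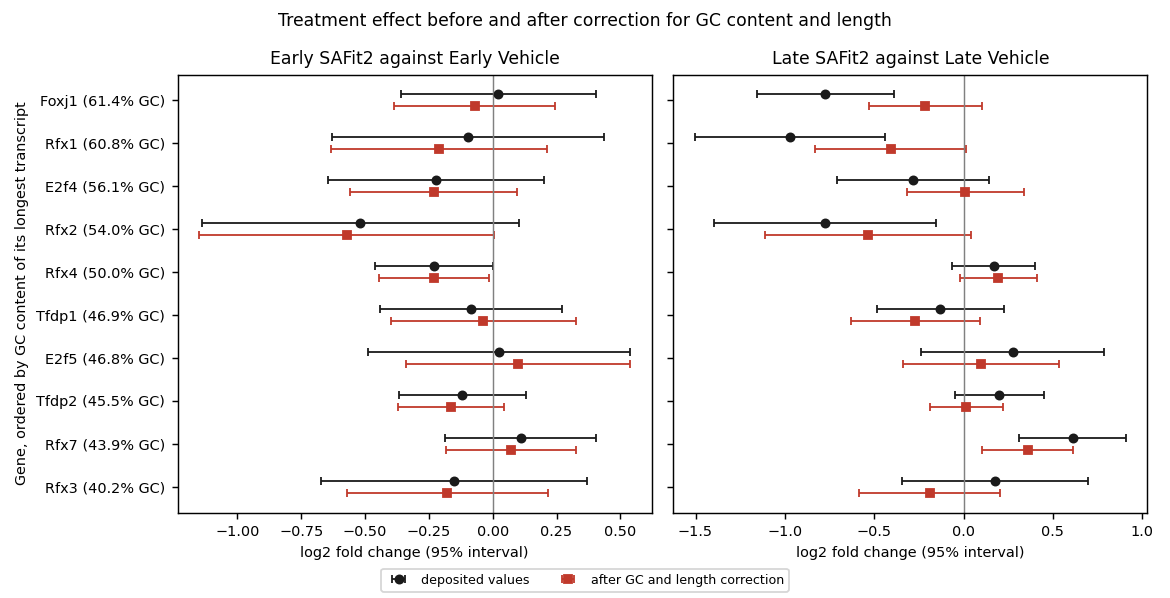
Log2 fold change with SAFit2 (horizontal axes, bars are 95% intervals from limma) for the 10 factors, ordered from the highest (top) to the lowest GC content of the longest transcript, for early mice (left) and late mice (right), from the deposited values (circles) and after correction for GC content and length (squares). In late mice Foxj1 moves from -0.77 to -0.21 and Rfx1 from -0.97 to -0.41, while early values change little.

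The 3 late calls, like the late calls over all genes, also depended on single mice. Each of Foxj1, Rfx1 and Rfx7 was called in 15 of the 22 fits that left out 1 mouse, and all were lost without Late Vehicle mouse 1, 3, 4 or 5 or Late SAFit2 mouse 2, 4 or 5, with limma adjusted p values of up to 0.101. The fits that lost them called 1 to 8 of all 16765 genes, beside 2021 in the main fit. The loss was thus not particular to these members. Their log2 fold changes kept their direction in all 22 fits, from -0.91 to -0.65 for Foxj1, -1.16 to -0.86 for Rfx1 and 0.49 to 0.69 for Rfx7. With only the 11 late libraries in the model the limma adjusted p was 0.0687 for each. This was also the lowest over all 16765 genes, of which 0 were called. In limma voom on the recovered reads Foxj1 and Rfx7 were called (adjusted p 0.0411 for both) and Rfx1 was not (0.0527). That fit called 1404 of 14600 genes, and its lowest adjusted p was also 0.0411.

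**Figure D3:**
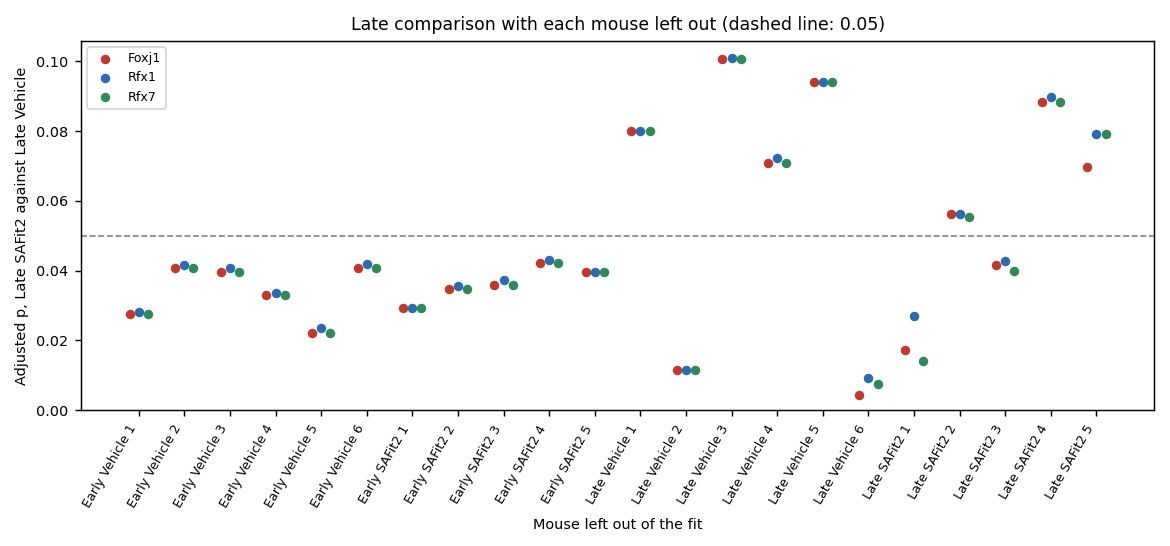
Limma adjusted p (vertical axis) of Foxj1, Rfx1 and Rfx7 in the late comparison when the mouse named on the horizontal axis was left out, with 1 point per gene and fit and a dashed line at the threshold of 0.05. Points lie under the line in 15 of 22 fits and reach 0.101 without Late Vehicle mouse 3.

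The early comparison asked what SAFit2 left behind when it was given around the onset of the joint disease. None of the 10 factors was called by limma in Early SAFit2 against Early Vehicle mice, and 0 were at a nominal p under 0.05, in limma as in limma voom. After GC content and length correction 1 member and 713 of 16213 genes were at a nominal p under 0.05 in limma. With library sizes without Bc1 and mitochondrial genes these were 1 member and 416 of 16765 genes, and neither fit called a member. In the deposited values 0% of all genes were called, 2.48% were at a nominal p under 0.05 and 0.352% separated the groups without overlap, which no member did. The median difference of the members was -0.11 on the log2 scale, beside 0.01 for all genes.

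Foxj1 was at 4.25, 4.05, 4.49, 4.14 and 3.60 log2 CPM in Early SAFit2 mice, and at 3.78, a median of 4.15 and 4.34 in Early Vehicle mice. The treated mice spread on both sides of the Vehicle mice, and the log2 fold change was 0.02 (SE 0.19, 95% interval -0.36 to 0.41). Rfx1 was at 2.03, 3.09, 3.12, 3.25 and 3.40 with SAFit2 against 2.77, a median of 2.95 and 3.74 with Vehicle, where treated mouse 1 was alone under the Vehicle range (log2 fold change -0.10, 95% interval -0.63 to 0.44). Rfx7 was at 5.07, 5.01, 4.94, 5.05 and 5.11 with SAFit2 and between 4.71 and 5.12 with Vehicle, a log2 fold change of 0.11 (95% interval -0.19 to 0.41).

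The early values of lowest p among the members were those of Rfx4 and Rfx2. Rfx4 was at 4.22, 4.13, 4.39, 4.38 and 4.24 log2 CPM with SAFit2 and at 4.34, a median of 4.49 and 4.70 with Vehicle, all 5 treated mice lying under the Vehicle mean. Its log2 fold change was -0.23 (SE 0.11, limma nominal p 0.0526, adjusted p 1.00) and its exact permutation p, not adjusted for the 10 members, 0.0173. Rfx2 was at 0.14, 0.43, 1.15, 0.56 and 0.64 with SAFit2 and at 0.52, a median of 1.22 and 1.41 with Vehicle (log2 fold change -0.52, SE 0.30, limma adjusted p 1.00, exact permutation p 0.0498). After GC content and length correction the log2 fold change of Rfx4 was -0.23 (exact permutation p 0.0216). That of Rfx2 was -0.57 (exact permutation p 0.0152), with 4 of 5 treated mice under every Vehicle mouse. In the deposited values the remaining members had log2 fold changes from -0.22 (E2f4) to 0.03 (E2f5), with 95% intervals that reached from -0.67 (Rfx3) to 0.54 (E2f5).

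Foxj1 could be set beside the genes it is known to switch on. Of 29 motile cilia genes (axonemal dyneins, radial spoke, tektin and related genes), 28 had a negative early difference, with a median of -0.91 on the log2 scale beside 0.01 for all genes, but 0 were called by limma and 14 were lower at a nominal p under 0.05. Their mean level was -0.05 to 0.36 log2 CPM in Early SAFit2 and 0.54 to 1.84 in Early Vehicle mice, without overlap. This list was chosen with earlier results of these data known, so its counts and means are a description and not an independent test. The mean level of the 8 ependymal markers was -1.53 to -0.89 log2 CPM in Early SAFit2 and -1.03 to 1.71 in Early Vehicle mice, with overlap. Their median early difference was -1.77 (from -4.22 to -0.35), all 8 negative, 0 called by limma and 6 at a nominal p under 0.05.

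Foxj1 itself had an early log2 fold change of 0.02 (-0.07 after GC content and length correction). In the 5 Early SAFit2 mice the mean of the ependymal markers was -1.53 to -0.89 log2 CPM. Foxj1 in these mice was at 3.60 to 4.49 log2 CPM and covered by 216 to 444 reads. How Foxj1 lay to the ependymal markers, among which it is often counted, depended on the correction. In the deposited values Foxj1 was at 4.55 in Late Vehicle mouse 1, with an ependymal mean of -0.80, and at 4.02 in Late SAFit2 mouse 5, with a mean of 1.78. After the correction the order of these mice turned, with Foxj1 at 4.13 and 4.47. In Early Vehicle mice 1 to 6 corrected Foxj1 was 3.74, 3.88, 4.17, 4.24, 4.09 and 4.33 beside ependymal means of -1.03, 0.07, 0.85, 1.71, 1.10 and 1.68, so that both were lowest in mice 1 and 2 and highest in mice 4 and 6. In Late Vehicle mice too, both were lower in mice 1 to 3 than in mice 4 to 6, where corrected Foxj1 was at 4.43 to 4.68. The SAFit2 mice did not all lie in this order, as Late SAFit2 mouse 2, with the lowest ependymal mean of its group (-1.34), had corrected Foxj1 at 4.27, the next to highest. Nor did the order hold in Early SAFit2 mice. Mouse 3 of that group, with its lowest ependymal mean (-1.53), had corrected Foxj1 at 4.18, while mouse 2, with its highest (-0.89), was at 3.73. Early SAFit2 mouse 1, with an ependymal mean of -1.17, was at 4.43, above every Early Vehicle mouse. Rnf157, the neighbour noted above, was at 8.07 to 8.64 log2 CPM in Early SAFit2 and 7.34 to 8.22 in Early Vehicle mice (log2 fold change 0.30, limma adjusted p 1.00).

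**Figure D4:**
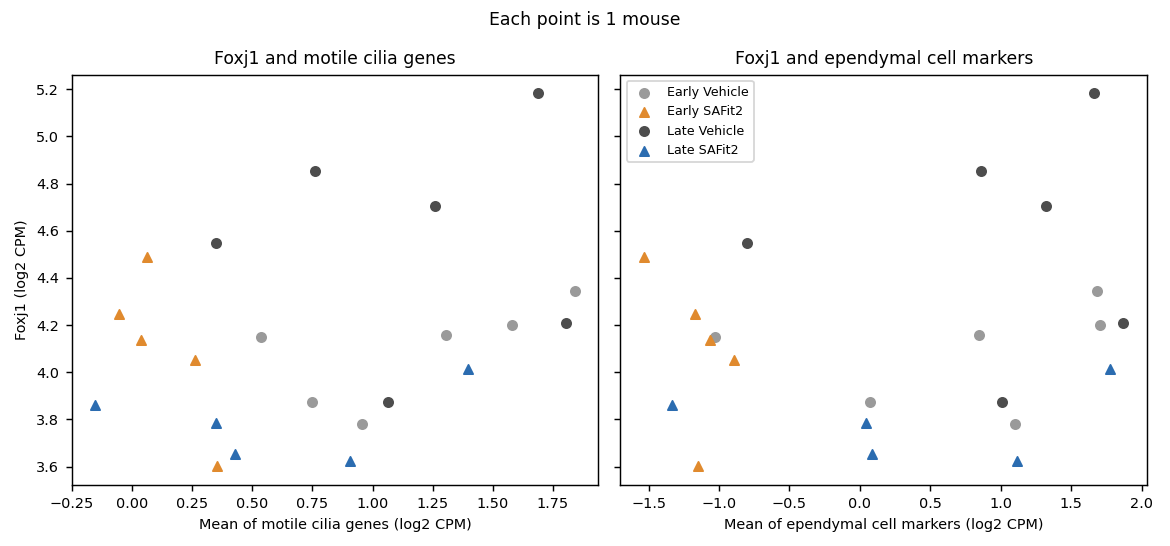
Foxj1 (vertical axis, log2 CPM as deposited, with no GC correction) against the mean level of 29 motile cilia genes (left) and of 8 ependymal cell markers (right) in log2 CPM, with 1 point per mouse and colour and shape by group. Early SAFit2 mice sit at the low end of the motile cilia axis (-0.05 to 0.36) yet span 3.60 to 4.49 for Foxj1.

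In late mice 27 of the 29 motile cilia genes had a negative difference (median -0.50, beside -0.05 for all genes). Of the 29, 2 were called lower, both very low in level, beside 6.72% of all genes called lower. This count is near the share of all genes and is not in itself a result. After GC content and length correction 0 of 16213 genes were called. Dnah11, an axonemal dynein heavy chain, averaged -2.08 ± 1.60 log2 CPM (SD, n = 5) with SAFit2 and 0.14 ± 1.22 (SD, n = 6) with Vehicle (log2 fold change -2.23, SE 0.70, limma adjusted p 0.0441). Hydin, a protein of the central pair of the motile axoneme, averaged -0.44 ± 1.17 and 1.22 ± 0.78 (log2 fold change -1.66, SE 0.53, limma adjusted p 0.0451). Of the 8 ependymal markers 1 was called lower, Rarres2 (log2 fold change -0.86, limma adjusted p 0.0460), beside the same 6.72% of all genes. The means of both lists overlapped between the late groups.

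Among 28 genes of primary cilium transport, which RFX factors control as well, 2 were called higher in late SAFit2 mice by limma and none lower, beside 5.33% and 6.72% of all genes, and at a nominal p under 0.05 there were 5 in each direction. Ift74, a subunit of the intraflagellar transport complex, was higher by 0.82 on the log2 scale (SE 0.20, limma adjusted p 0.0324). Ttc8, a subunit of the BBSome, was higher by 0.50 (SE 0.17, limma adjusted p 0.0498). The median of the list was -0.01 in late and -0.04 in early mice, with 0 called in early mice by limma and 0 at a nominal p under 0.05. Of 8 tested genes of centriole amplification 1 was called, beside 12.1% of all genes in either direction. This count is not in itself a result. The called gene was Ccp110, which caps centrioles and holds back ciliation, higher by 0.43 in late SAFit2 mice (limma adjusted p 0.0384). Ccp110 averaged 6.78 log2 CPM in Late SAFit2, 6.35 in Late Vehicle and 7.05 in Early Vehicle mice. Ttc8 averaged 3.40, 2.90 and 3.67 in the same order, so both stayed under the Early Vehicle mean. Ift74, at 5.685, 4.87 and 5.19, lay above it.

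The partners and regulators of the members showed no treatment call. The 9 pocket protein and DREAM complex genes, with which E2f4 and E2f5 repress cell cycle genes, had 0 called in either treatment comparison by limma, with 2 at a nominal p under 0.05 in late mice (median 0.21) and 0 in early mice (median -0.07). The other 9 RFX and E2F family genes in the table (Rfx5, Rfx8, Rfxap, Rfxank, E2f1, E2f2, E2f3, E2f6 and E2f7) had 0 called and 0 at a nominal p under 0.05 in both, with medians of 0.18 early and -0.16 late. Of the regulators that act upstream of Foxj1 and E2f4 in multiciliated cells, Gmnc, Ccno, Myb and Trp73 were in the table, none was called with treatment, and their mean level was low, from -1.75 to -0.04 log2 CPM.

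The early effect of SAFit2 was compared with the late effect directly, as the difference of the 2 log2 fold changes. No member was called by limma for this difference, beside 0% of all genes, and 4 of 10 were at a nominal p under 0.05 beside 24.9% of all genes (limma voom also called 0 members, with 4 at a nominal p under 0.05). Foxj1 had an early minus late difference of 0.80 (SE 0.26, limma adjusted p 0.120, exact permutation p 0.0217 within timing) and Rfx1 one of 0.87 (SE 0.37, adjusted p 0.148, permutation p 0.0629). Rfx7 had a difference of -0.50 (adjusted p 0.143, permutation p 0.0686) and Rfx4, lower early and higher late, one of -0.40 (SE 0.16, adjusted p 0.139, permutation p 0.00477). Without Late Vehicle mouse 6 the difference of Foxj1 was 0.87 and passed (limma adjusted p 0.0325), in a fit that called 2513 of 16765 genes for this difference. After GC content and length correction the difference was 0.14 for Foxj1 (exact permutation p 0.533) and 0.20 for Rfx1 (permutation p 0.530). It was -0.29 for Rfx7 (permutation p 0.179) and -0.42 for Rfx4 (permutation p 0.00441), and limma again called 0 members. The late calls of Foxj1, Rfx1 and Rfx7 were therefore not shown to be particular to late treatment.

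The Vehicle groups were compared to see how the baseline of the late comparison lay to that of the early one. This comparison shares the Late Vehicle mice with the late treatment comparison, and timing and batch cannot be told apart in it. No member was called by limma, beside 9.11% of all genes (3.29% higher and 5.82% lower in Late Vehicle mice), 5 of 10 were at a nominal p under 0.05 beside 24.3%, and no member separated the groups without overlap, as 4.92% of all genes did. In limma voom 0 members were called and 6 were at a nominal p under 0.05.

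Foxj1 was the member at a nominal p under 0.05 with a positive difference, averaging 4.56 ± 0.47 in Late Vehicle and 4.08 ± 0.21 log2 CPM in Early Vehicle mice (SD, n = 6 each, log2 fold change 0.48, SE 0.18, limma adjusted p 0.0888, exact permutation p 0.0433). Late SAFit2 mice, at 3.79 ± 0.16 (SD, n = 5), thus lay below both Vehicle groups in mean, but after GC content and length correction they were at 4.15, above the 4.07 of Early Vehicle mice. Rfx7 had the opposite pattern, with 4.64 ± 0.26 in Late Vehicle and 4.93 ± 0.14 in Early Vehicle mice (log2 fold change -0.29, adjusted p 0.195) and 5.25 ± 0.38 in Late SAFit2 mice. E2f4 (-0.50, limma adjusted p 0.109), Tfdp1 (-0.39, 0.142) and Tfdp2 (-0.29, 0.113) had negative log2 fold changes, and for Tfdp2 5 of 6 Late Vehicle mice lay under all Early Vehicle mice. Single mice decided these: limma called Foxj1 higher without Late Vehicle mouse 2 or 6, Tfdp2 lower without Late Vehicle mouse 6 and Tfdp1 lower without Early Vehicle mouse 4, with log2 fold changes of 0.62, 0.55, -0.36 and -0.53. Over all 16765 genes the fits called 1531 without Late Vehicle mouse 2, 2482 without Late Vehicle mouse 6 and 1485 without Early Vehicle mouse 4. These counts of members are thus not in themselves a result.

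Some genes of the cilium, centriole and partner lists were called between the Vehicle groups, all of these lower in Late Vehicle mice, beside 5.82% of all genes called lower by limma. They included 5 of the 28 primary cilium transport genes (median of the list -0.19), among them Ttc8 (log2 fold change -0.77, adjusted p 0.00241), Bbs5 (-0.87, 0.0111) and Bbs2 (-0.41, 0.0365), all subunits of the BBSome. Of centriole genes Ccp110 (-0.70, adjusted p 0.000446) and Cep152 (-1.03, adjusted p 0.00682), which recruits the kinase for centriole duplication, were lower. Of the 29 motile cilia genes 2 were called, Ccdc39 (limma log2 fold change -0.96, adjusted p 0.0250) and Dnah12 (-1.99, adjusted p 0.0329), while 18 of the 29 had a positive difference (median 0.11). Gmnc, which starts the multiciliated programme, was lower (log2 fold change -1.32, limma adjusted p 0.0477), as was Mybl2, a MYB protein that joins the DREAM core to switch on cell cycle genes (-2.04, limma adjusted p 0.00650), and neither reached more than 1.19 log2 CPM in a Vehicle mouse.

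Correlations among the members were of both signs. With the group means taken away, Pearson r over the 22 mice for the 45 pairs of members had a median of -0.07, a lowest value of -0.64 (E2f4 and E2f5) and highest values of 0.61 (E2f5 and Tfdp2) and 0.59 (Foxj1 and E2f4). After GC content and length correction these became -0.45, 0.33 and 0.10, within a range of -0.47 to 0.57 over the pairs, and libraries share their GC trend in such values. The genes with the closest pattern to a member (highest r of residuals over 22 mice) were Gm10023 (0.83), Pgp (0.80) and Tmem184b (0.80) for Foxj1, Trerf1 (0.84), Gigyf1 (0.83) and Unc119b (0.82) for Rfx1, and Kdsr (0.88), Lgr4 (0.81) and Gnai3 (0.81) for Rfx7. For Rfx3 and Rfx4 they were led by Dis3 (0.87) and Dmrta1 (0.83), and for E2f4, E2f5, Tfdp1 and Tfdp2 by Pias4 (0.88), Cbwd1 (0.88), Zfp3 (0.85) and Kif5b (0.91). No motile cilia gene of the list was among the 3 closest to any member.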

How the data were processed

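RNA was taken from L4-L6 spinal cord (ipsilateral lumbar quadrants, per the methods) of 22 male mice in 4 groups of 5 or 6. Strand-specific libraries were sequenced paired-end. The submitters' processing notes name Trimmomatic, HISAT2, edgeR and mm10, and the methods name featureCounts and scaling by trimmed mean of M-values. The values the authors deposited are log2 CPM of 17306 genes, with a floor of -3.154 for 0 reads, from which a prior count of 2.0 was inferred. The reads behind them came out whole in 100.0% of cases (tolerance 0.02 reads) and were used for depth (11352989 to 24433349 reads on genes) and for limma voom. Fold changes of genes with few reads are understated on this scale. Which mice shared a cage or litter is not given in the sources used here.

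The 16765 genes that reached -1 log2 CPM in 5 or more libraries were fitted in R 4.3.3 with limma 3.58.1, with a mean per group, a variance trend and Benjamini-Hochberg adjustment. For members a two-sided exact permutation test of mice was added (462 splits of 5 and 6, 924 of 6 and 6, and 213444 within timing for the early-late difference), where the smallest p for a pair of groups is 0.00216 and no adjustment was made over members. GC content and length came from the longest transcript in GENCODE M21 (16699 genes, 96.5%), coordinates from the same annotation and promoters from RefSeq. The correction took away each library's loess trend (span 0.5) for 16213 genes. Scripts were tested on simulated counts without a GC or length trend, which cannot show how the correction acts on such trends. They were run in Python 3.11.15 with numpy 2.4.6, pandas 2.3.3 and matplotlib 3.10.9. Alternatives were no filter, log2(CPM + 1), voom, centring on the median gene, library sizes without Bc1 and mitochondrial genes, GC content and length correction, the compared libraries alone, a replicate block and leaving out each of 22 mice.

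The members, the gene lists, the comparisons and the alternatives were chosen with earlier results of these data known. Named genes are all members, the called genes of each pathway list (up to 3 per list and comparison by lowest p) and the 3 genes of most similar pattern for each member (the leading gene alone for the members not called), those for Rfx2 not being reported here.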

Additional observations from a re-analysis of the deposited data

Results flagged for a closer look

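Over the 40 combinations of 10 members and 4 groups, 3 held a mouse that stood far from the rest of its group, where chance gives about 1 in 20 groups, or 2. Rfx1 was at 2.03 log2 CPM in Early SAFit2 mouse 1, against 3.09 for the next mouse. Tfdp1 was at 4.10 log2 CPM in Early Vehicle mouse 4, against 4.83 for the next. Tfdp2 was at 5.46 log2 CPM in Late Vehicle mouse 6, against 5.07 for the next. Without these mice the early difference of Rfx1 was 0.14, and Tfdp1 and Tfdp2 would each have been called lower in Late Vehicle than in Early Vehicle mice (limma adjusted p 0.0271 and 0.0328). The fits behind these calls called 1485 and 2482 of 16765 genes.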

How the results depend on the processing

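The early comparison called 0 members under every alternative run. For the late comparison, GC content and length correction and the fit of only the compared libraries each called 0 in place of 3, and 0 of all genes. Leaving out 1 mouse gave 0 to 4 members, beside 1 to 4971 of all genes. The fit of only the compared libraries has fewer mice to estimate the spread. The cause of the change with GC content and length correction was not tested. For the early-late difference leaving out 1 mouse gave 0 to 1, beside 0 to 2513 of all genes. For the Vehicle comparison leaving out 1 mouse gave 0 to 2, centring on the median gene called 1 (Foxj1, 0.54), library sizes without Bc1 and mitochondrial genes 2 (E2f4, -0.61, and Tfdp2, -0.40) and GC content and length correction 1 (E2f4, -0.58, limma adjusted p 0.00959). Over all genes, leaving out 1 mouse called 944 to 2482, centring 2014 and those library sizes 1770 of 16765. The correction called 2533 of 16213. Library sizes without Bc1 and mitochondrial genes moved the median of all genes in that comparison to -0.10 and the split of calls from 552 higher and 975 lower to 144 and 1626, and centring moved it to 1198 and 816. In the late comparison centring moved the split from 894 higher and 1127 lower to 1139 and 924, library sizes without Bc1 and mitochondrial genes to 720 and 1351, and voom (1404 calls) to 744 and 660. The direction turned with GC content and length correction for Foxj1 early (-0.071), for Rfx3 (-0.19) and E2f4 (0.0096) late, and for Rfx2 (-0.039), Rfx3 (0.011), E2f4 (-0.24) and E2f5 (0.0023) in the early-late difference. It also turned for Tfdp1 in that difference when centred (-0.013) and for Rfx4 between Vehicle groups with library sizes without Bc1 and mitochondrial genes (-0.053). With 1 mouse left out, values ran through 0 for Foxj1 (-0.074 to 0.15), Rfx1 (-0.20 to 0.14) and E2f5 (-0.11 to 0.19) early, Tfdp1 late (-0.22 to 0.019), E2f4 (-0.070 to 0.21) and Tfdp1 (-0.10 to 0.13) in the early-late difference and E2f5 between Vehicle groups (-0.30 to 0.035). Without Late Vehicle mouse 6 Foxj1 was called for the early-late difference (beside 2513 of 16765 genes) and with Tfdp2 between Vehicle groups (beside 2482). Without Late Vehicle mouse 2 Foxj1 was called between Vehicle groups as well (beside 1531).

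Replicate numbers did not pair the mice (r of residuals within pairs -0.236 to 0.317, 2 of 10 over 0.1). A replicate block gave 3 members in the late comparison, 0 in the early and Vehicle comparisons and 1 in the early-late difference (Foxj1, 0.92). It moved the late calls over all genes from 2021 to 4219 and those for the early-late difference from 0 to 1785. Counting error limits Rfx2 (6 to 67 reads) and Rfx1 in Late SAFit2 mice (28 to 59 reads), and the number of mice limits every interval.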
